A study of Mus musculus with 8 samples.

Results

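Synaptic vesicle fusion proteins were examined in the brain of mice with a brain-specific knockout of SIRT1, an enzyme that removes acetyl groups from proteins and uses NAD. The genes were taken by symbol: synaptotagmins (Syt), syntaxins (Stx), syntaxin-binding proteins (Stxbp), vesicle-associated membrane proteins (Vamp), complexins (Cplx), the Rab3 GTPases, synapsins (Syn), the Sv2 vesicle proteins and the proteins named Snap23, Snap25, Snap29, Snap47 and Snap91. A probe set, the group of short probes that reports 1 transcript on an Affymetrix array, was taken when its only gene symbol was one of these. This gave 104 of the 22626 tested probe sets and 54 of the 12393 genes. The synaptotagmins had 14 genes with 21 probe sets, the syntaxins 12 with 28, the Vamp genes 7 with 17, the Snap genes 5 with 10, the Stxbp genes 4 with 8, the complexins 4 with 6, the Rab3 genes 4 with 9, the synapsins 3 with 4 and Sv2 a single gene with 1. Of the 54 genes, 26 had 1 probe set and 28 had more, up to 5.

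Whole brain RNA came from males of the C57/B6 strain aged 3 months. The brain-specific knockout animals (BSKO) were compared with wild-type littermates (WT), with 4 biological replicates of each genotype and 1 array for each. The promoter behind the brain-specific deletion, the deleted part of the gene and any allele shared by both groups were not stated in the labels used here. As deposited, the log2 values of each probe set lie around their own median over the 8 arrays. They give differences between arrays and carry no level of expression, so the labelled tissue could not be checked by the level of its markers.

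Chemical synapses release transmitter when a synaptic vesicle fuses with the plasma membrane. A SNARE protein on the vesicle (a Vamp, also called synaptobrevin) zips together with SNARE proteins of the target membrane (a syntaxin and a SNAP-25 relative) and draws the membranes together. Munc18 proteins, encoded by some Stxbp genes, hold and template syntaxin, complexins bind the partly assembled complex, and synaptotagmins sense calcium and trigger fusion. Rab3 proteins and synapsins act earlier, on the supply and tethering of vesicles. Other members of the same families serve transport between organelles in all cells. Neurons throughout the brain express the core of this machinery.

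Sirt1 itself was 0.00, -0.00, 0.08 and 0.29 on WT 1 to 4 and 0.08, -1.46, -0.20 and -0.06 on BSKO 1 to 4, with overlap between the genotypes (-0.50, SE 0.31, limma adjusted p = 0.504). Since the deleted part is unknown, this probe set does not check the labels. BSKO 2 stood apart from the other arrays. The SD of its values over all tested probe sets was 0.831, against 0.150 to 0.314 on the other 7. Probe sets at the 5' end of a transcript read low where RNA is broken, and the 5' minus 3' difference for beta-actin was -2.44 on BSKO 2, against -0.104 to 0.489 elsewhere. For Gapdh it was -2.43, against -0.0749 to 0.0949. Differences are therefore given with 8 arrays and with 7, without BSKO 2. The part of this array's RNA quality in any difference was not tested. In whole tissue, fewer cells of a type and less RNA per cell cannot be told apart.

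With 8 arrays, none of the 104 probe sets and none of the 54 genes passed the test. Without BSKO 2, 3 genes were called as lower in BSKO brain and no member was called as higher. The 3 were Syt17, an atypical synaptotagmin, Stxbp6, which encodes the syntaxin-binding protein amisyn, and Vamp7, a SNARE of late endosomes and lysosomes. A gene was given the mean of its probe sets, and called when limma's p after Benjamini-Hochberg adjustment over all genes was under 0.05. Of all genes, 0.0726% were called with 8 arrays in either direction. Without BSKO 2, 1.39% were called as lower and 0.758% as higher. The members' share of 3 of 54 lower rests on few genes, and whether it differs from this background was not tested.

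Among single probe sets, 0 of 104 were called with 8 arrays, where 0.0309% of all probe sets were called in either direction. At an unadjusted p under 0.05 there were 13 of 104, where the background was 10.8%, and 8 of 54 genes (5 higher and 3 lower), where the background was 12.2%. With 8 arrays these shares lie near those of all features. Without BSKO 2 they lay above: 32 of 104 probe sets and 20 of 54 genes (9 higher and 11 lower), where the background was 19.8% and 21.2%, a gap that was not tested. Without BSKO 2, 6 of 104 probe sets were called as lower and 0 as higher, where 1.14% and 0.495% of all probe sets were called. These 6 belonged to 5 genes: both probe sets of Syt17 and 1 each of Vamp1, Rab3c, Stxbp6 and Vamp7.

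More fusion genes lay below 0 than above it. With 8 arrays 34 of 54 differences were lower in BSKO (63.0%) and the median difference was -0.12 on the log2 scale, beside 45.2% and 0.03 over all genes. Without BSKO 2 it was 31 of 54 (57.4%) with a median of -0.04, beside 46.4% and 0.01 over all genes. The array medians of the 54 genes were 0.01, 0.06, 0.04 and 0.01 on WT 1 to 4 and -0.04, -0.14, 0.00 and -0.00 on BSKO 1 to 4. BSKO 2 thus held the lowest of the 8 medians, and the other BSKO arrays lay near 0. Every BSKO median lay below every WT median, by a small gap for the BSKO arrays other than BSKO 2. The fusion genes were not alone in this. Of the 12 general neuronal markers, 10 were lower in BSKO, their median difference was -0.18 with 8 arrays and -0.03 without BSKO 2, and their median on BSKO 2 was -0.33 where the other 7 arrays spanned -0.07 to 0.06. Of 11 astrocyte markers 10 were lower, with a median difference of -0.22 (-0.12 without BSKO 2) and an array median of -0.38 on BSKO 2. The 7 endothelial markers had an array median of -0.30 there. The part of cell content or RNA quality in the fusion genes' shift was not tested.

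**Figure D1:**
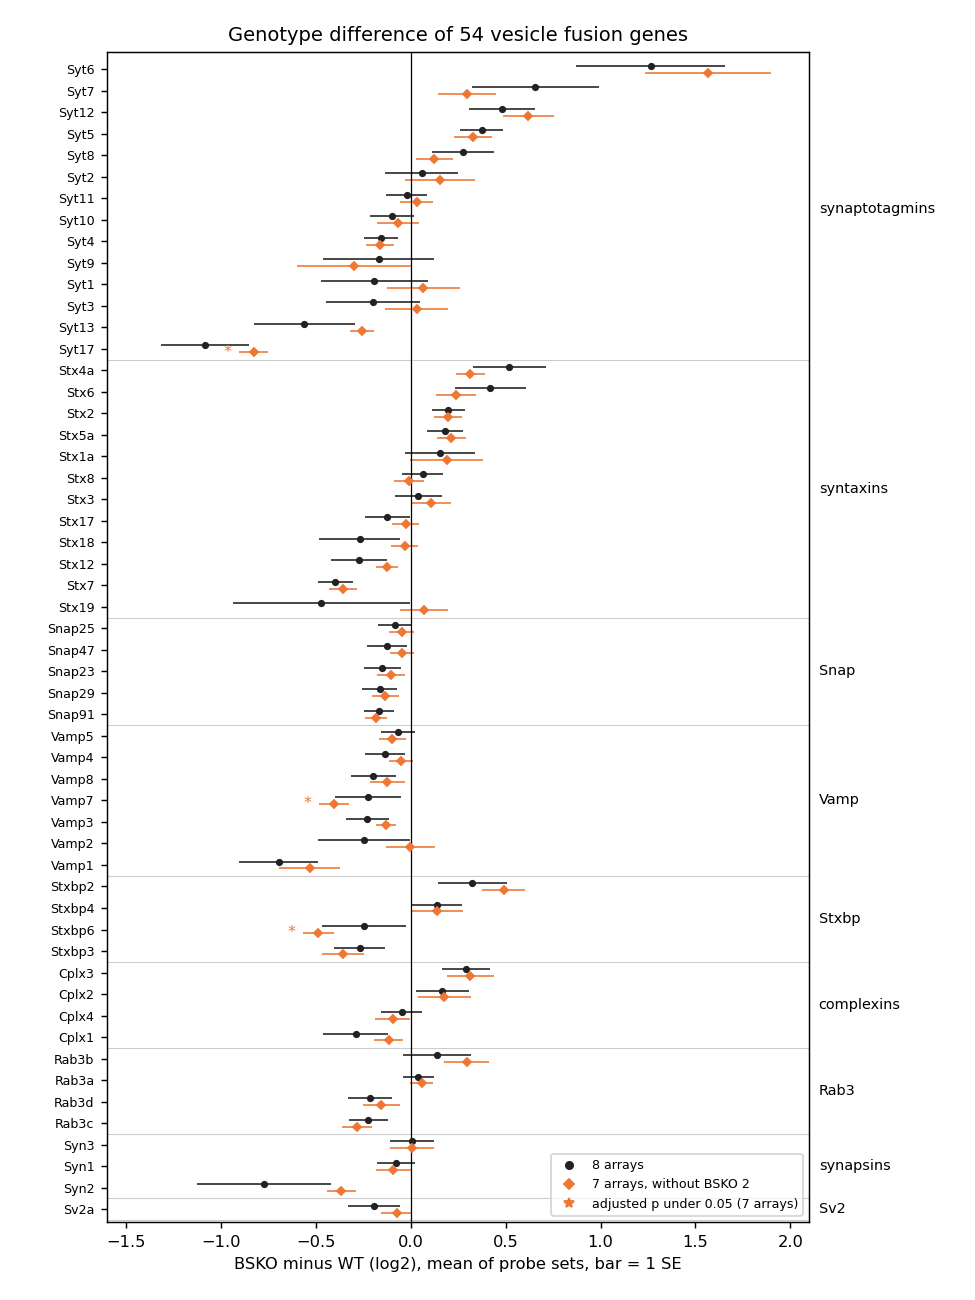
Difference between BSKO and WT (log2, x axis) for each of the 54 genes, ordered within families, with probe sets averaged per gene. Black circles are fits of 8 arrays and orange diamonds fits of 7 arrays without BSKO 2, bars are 1 SE, and stars mark the 3 genes with an adjusted p under 0.05 in the 7-array fit (Syt17, Stxbp6 and Vamp7). Syt6 lies farthest right and Syt17 farthest left with 8 arrays.

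Leaving out BSKO 2 made the estimates tighter. The median SE of a fusion gene's difference was 0.134 with 8 arrays and 0.089 with 7, close to 0.149 and 0.0905 over all genes. The size of the difference was larger with BSKO 2 for 30 of the 54 genes, and the sign turned for 5. On BSKO 2, 35 of the 54 genes lay outside the range of the other 7 arrays (64.8%), 26 below and 9 above, beside 75% of all genes. The plot of all 54 differences shows this as black bars that are mostly longer than the orange ones.

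For some genes the arrays of the genotypes did not overlap. With 8 arrays, 5 genes had all BSKO arrays above all WT arrays (Cplx3, Stx2, Stx4a, Stx5a and Syt5), where 6.4% of all genes did. In the other direction were 8 genes (Snap91, Stx7, Stx12, Syn2, Syt13, Syt17, Vamp1 and Vamp3), where the background was 6.85%. Without BSKO 2 the counts were 8 above and 12 below, and the background was 10.2% in each direction.

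Vesicle-side SNAREs came first in the order of the release reaction. All 7 Vamp genes had a difference below 0 with 8 arrays and with 7. Their median was -0.23 with 8 arrays and -0.12 without BSKO 2, and 1 of the 7, Vamp7, passed the test in the second. The 7 also lay below 0 after quantile normalization and with each array centred on its median, and at least 6 of them did when each further array was left out. Vamp2, the main vesicle SNARE of the forebrain, was -0.20, 0.01, 0.18 and 0.12 on WT 1 to 4 and -0.18, -0.95, 0.26 and 0.00 on BSKO 1 to 4. BSKO 2 alone was low, and the other BSKO arrays lay near or within the WT range. Its difference was -0.25 (SE 0.24, limma adjusted p = 0.637) with 8 arrays and -0.00 (SE 0.13, limma adjusted p = 0.996) with 7.

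Vamp1, the synaptobrevin that is prominent in brainstem and spinal cord, had 2 probe sets. On 1421862_a_at it was 0.28, 0.59, 0.31 and 0.16 on WT 1 to 4 and -0.34, -1.21, -0.41 and -0.16 on BSKO 1 to 4. Every BSKO array lay below every WT array. The probe set was 1.55-fold lower without BSKO 2 (-0.64, SE 0.12, limma adjusted p = 0.0423) and missed the threshold with 8 arrays (-0.86, limma adjusted p = 0.259). The other probe set, 1421863_at, was 0.47, 0.41, -0.05 and 0.02 in WT and -0.02, -0.63, -0.79 and 0.17 in BSKO. Here the genotypes overlapped, and the difference was -0.53 with 8 arrays and -0.43 without BSKO 2 (limma adjusted p = 0.471 and 0.359). As the mean of both, Vamp1 differed by -0.70 (SE 0.21) with 8 arrays and by -0.53 (SE 0.16) with 7, and missed the threshold in both (limma adjusted p = 0.261 and 0.127). The 8 measured hindbrain and spinal cord markers had array medians of 0.24, 0.28, 0.05 and -0.18 on WT 1 to 4 and 0.00, 0.32, -0.23 and -0.11 on BSKO 1 to 4. Among WT arrays both the Vamp1 mean and these markers were highest on WT 1 and WT 2, while on BSKO 2 the Vamp1 mean was lowest and the markers highest. Their part in the Vamp1 difference was not tested.

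Vamp7, a SNARE with a regulatory longin domain that tetanus toxin does not cleave, was 0.13, 0.06, 0.05 and 0.15 on WT 1 to 4 and -0.18, 0.41, -0.46 and -0.27 on BSKO 1 to 4. BSKO 2 lay above every WT array and the other BSKO arrays below. With 8 arrays the difference was -0.23 (SE 0.17, limma adjusted p = 0.571), and without BSKO 2 the gene fell by 0.40 (SE 0.08, limma adjusted p = 0.0485), or 1.32-fold. The opposite value on BSKO 2 came from 1 of its 2 probe sets. On 1452007_at that array was at 1.02, where the others were -0.27, -0.49 and -0.36 in BSKO and -0.02 to 0.17 in WT. On 1426269_at it was at -0.21, among the other BSKO values of -0.10, -0.43 and -0.17 and below the WT values of 0.10, 0.10, 0.12 and 0.23. The first probe set passed without BSKO 2 (-0.43, limma adjusted p = 0.0464), the second did not (-0.37, limma adjusted p = 0.0885). The gene's call was lost when any WT array, BSKO 3 or BSKO 4 was also left out (limma adjusted p = 0.0778 to 0.130, with differences of -0.42 to -0.32). It was also lost with trend and robust settings of limma (adjusted p = 0.0909) and with cross-hybridising probe sets left out (adjusted p = 0.0501).

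Vamp3, or cellubrevin, which serves recycling endosomes, had 5 probe sets whose mean was 0.06 to 0.10 in WT and -0.46 to -0.05 in BSKO, without overlap. It differed by -0.23 (SE 0.11) with 8 arrays and by -0.13 (SE 0.05) with 7 and did not pass (limma adjusted p = 0.446 and 0.213). Vamp4, Vamp5 and Vamp8 differed by -0.14, -0.07 and -0.20 with 8 arrays and by -0.05, -0.10 and -0.12 with 7, and none passed (limma adjusted p = 0.496 to 0.720, and 0.459 to 0.663).

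Genes with a Snap symbol also lay below 0, all 5 with 8 arrays and with 7 and under both other scalings, and none passed. Their medians were -0.15 and -0.10, with Snap91, which is no relative of SNAP-25, counted among them. Snap25, the target-membrane SNARE of neurons that botulinum toxin A cleaves, was -0.08, 0.06, 0.09 and 0.05 on WT 1 to 4 and -0.05, -0.17, -0.04 and 0.04 on BSKO 1 to 4. The genotypes overlapped. The difference was -0.08 (SE 0.09, limma adjusted p = 0.660) with 8 arrays and -0.05 (SE 0.07, limma adjusted p = 0.722) without BSKO 2.

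Snap91 bears the symbol by homonymy: it encodes the clathrin assembly protein AP180 of vesicle endocytosis and is no SNARE. It had the largest size of difference in this group, with WT at 0.08 ± 0.03 (SD, n = 4), BSKO at -0.09 ± 0.05 and no overlap. The difference was -0.17 (SE 0.08, limma adjusted p = 0.435), and -0.18 (SE 0.06, limma adjusted p = 0.140) without BSKO 2. Snap23, the form found in most cells, differed by -0.15, Snap29, which acts on internal membranes, by -0.16, and Snap47 by -0.13 with 8 arrays (limma adjusted p = 0.472 to 0.591). Without BSKO 2 they differed by -0.10, -0.13 and -0.05 (limma adjusted p = 0.327 to 0.698).

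Syntaxins were mixed, 7 above and 5 below 0 with 8 arrays, with medians of 0.05 and, without BSKO 2, 0.09. None passed. Stx1a, the syntaxin of the synaptic SNARE complex, was -0.37, -0.35, 0.21 and 0.20 on WT 1 to 4 and -0.10, -0.03, 0.02 and 0.41 on BSKO 1 to 4. WT 1 and WT 2 were the lowest arrays and the genotypes overlapped. The difference was 0.15 (SE 0.18, limma adjusted p = 0.693), with 0.30 in replicates 1 and 2 alone and 0.01 in replicates 3 and 4, and it was 0.19 (limma adjusted p = 0.609) without BSKO 2. Its probe sets gave 0.30 (1437390_x_at) and 0.00 (1448366_at) with 8 arrays and 0.22 and 0.16 with 7. The suffix of the first marks possible cross-hybridisation, and with such probe sets left out the gene's difference with 8 arrays was 0.00.

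Stx4a, which encodes syntaxin 4 of the plasma membrane, was -0.26, -0.13, -0.09 and -0.11 in WT and 0.09, 0.98, 0.12 and 0.29 in BSKO. The genotypes did not overlap and BSKO 2 was far the highest. The difference of 0.52 (SE 0.19, limma adjusted p = 0.361) was the largest of the syntaxins, and was 0.31 (SE 0.08, limma adjusted p = 0.0780) without BSKO 2. Stx7, a syntaxin of late endosomes singled out after its values were seen, had the smallest p of the syntaxins, with WT at 0.10, 0.19, 0.29 and 0.26 and BSKO at -0.10, -0.31, -0.11 and -0.24. The genotypes did not overlap, with a difference of -0.40 with 8 arrays and -0.36 with 7 (limma adjusted p = 0.178 and 0.0513). The widest error in the family was that of Stx19, whose difference was -0.47 (SE 0.47) with 8 arrays and 0.07 (SE 0.13) without BSKO 2, where it was -2.09.

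The Stxbp genes bind syntaxins and differed among themselves, 2 above and 2 below 0. Stxbp6 encodes amisyn, a protein with a SNARE-like motif that binds syntaxin in place of a vesicle SNARE and restrains release. Its 1 probe set was 0.17, 0.08, 0.02 and -0.02 on WT 1 to 4 and -0.28, 0.53, -0.49 and -0.49 on BSKO 1 to 4. As for Vamp7, BSKO 2 was the highest array of all and the other BSKO arrays were the lowest. Thus the gene differed by -0.25 (SE 0.22, limma adjusted p = 0.610) with 8 arrays and fell by 0.49 (SE 0.08, limma adjusted p = 0.0300), or 1.40-fold, without BSKO 2. The call was lost when any WT array, BSKO 3 or BSKO 4 was also left out (limma adjusted p = 0.0716 to 0.106) and held without BSKO 1 (0.0170), with differences of -0.56 to -0.45 in these fits. It was also lost with trend and robust settings of limma (adjusted p = 0.154).

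Stxbp2, or Munc18-2, known from granule release in blood and epithelial cells, was -0.28, -0.25, 0.09 and -0.09 in WT and 0.17, -0.30, 0.49 and 0.41 in BSKO. BSKO 2 was the lowest array and the other BSKO arrays were the highest. The difference was 0.33 (SE 0.18, limma adjusted p = 0.472) with 8 arrays and 0.49 (SE 0.11, limma adjusted p = 0.0716) without BSKO 2. All 3 of its probe sets gave like differences with 8 arrays, 0.33, 0.30 and 0.34. The suffix of the first and second, 1416449_x_at and 1437048_x_at, marks possible cross-hybridisation, and that of the third, 1448341_a_at, does not. Stxbp3, or Munc18c, differed by -0.27 and Stxbp4 by 0.14 with 8 arrays (limma adjusted p = 0.452 and 0.632). Without BSKO 2 these were -0.36, with no overlap between the genotypes, and 0.14 (limma adjusted p = 0.136 and 0.584).

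Synaptotagmins held both ends of the range, Syt6 above and Syt17 below. Of 14, 6 were above and 8 below 0 with 8 arrays (median -0.06), and 9 above and 5 below without BSKO 2 (median 0.05). Syt17, also known as B/K protein, has the paired C2 domains of a synaptotagmin without the usual transmembrane anchor. As the mean of 2 probe sets it was 0.48, 0.43, 0.26 and 0.35 on WT 1 to 4 and -0.55, -1.48, -0.38 and -0.42 on BSKO 1 to 4. Every BSKO array lay below every WT array, and BSKO 2 was the lowest by far. The gene was 2.12-fold lower with 8 arrays (-1.09, SE 0.23) and 1.78-fold lower without BSKO 2 (-0.83, SE 0.08). It missed the threshold with 8 arrays (limma adjusted p = 0.139) and passed it without BSKO 2 (limma adjusted p = 0.00776).

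Both probe sets of Syt17 showed the separation. On 1433909_at the values were 0.62, 0.52, 0.35 and 0.45 in WT and -0.35, -0.86, -0.60 and -0.36 in BSKO. On 1422955_at they were 0.34, 0.34, 0.16 and 0.24 in WT and -0.74, -2.10, -0.16 and -0.49 in BSKO. BSKO 2 was thus the lowest array on both, by a wider gap on the second. Without BSKO 2 the differences were -0.92 (SE 0.09, limma adjusted p = 0.0129) and -0.73 (SE 0.13, limma adjusted p = 0.0413), and with 8 arrays -1.03 (limma adjusted p = 0.0652) and -1.14 (limma adjusted p = 0.343). A two-sided exact permutation test of the gene mean gave p = 0.0286 over 70 arrangements of 8 arrays and p = 0.0571 over 35 of 7 arrays. Each is the smallest this test can give, since it doubles the p of the smaller tail. By the same exact test of the other 4 genes with a called probe set, Vamp1 had p = 0.0286, Rab3c p = 0.0571, Vamp7 p = 0.314 and Stxbp6 p = 0.343 with 8 arrays, and all 4 had p = 0.0571 with 7. The genes were picked for a small p, so these values give no separate support. For Syt17, replicates 1 and 2 alone, with BSKO 2 among them, gave a difference of -1.47 and replicates 3 and 4 one of -0.70. Its call without BSKO 2 held when each other array was left out as well (limma adjusted p = 0.0107 to 0.0453, differences of -0.87 to -0.78).

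Markers of some other cell types were also lower in BSKO. All 9 markers of meninges and fibroblasts were lower in BSKO, with a median difference of -0.91 (-0.85 without BSKO 2) and array medians of 0.75, 0.80, 0.16 and 0.19 on WT 1 to 4 and -0.61, -0.51, -0.33 and -0.21 on BSKO 1 to 4. Among them Ogn (-1.39) and Lum (-0.85) were called without BSKO 2. All 5 measured dentate gyrus markers were lower too, with a median difference of -0.72 (-0.74) and array medians of 0.72, 0.77, 0.04 and 0.01 in WT and -0.25, -0.08, -0.24 and -0.35 in BSKO. On both lists every BSKO median lay below every WT median, as for Syt17, and WT 1 and WT 2 were the highest. The same held for the general neuronal markers, with medians of 0.01 to 0.06 in WT and -0.33 to -0.00 in BSKO. It also held for the astrocyte markers, with 0.06 to 0.11 in WT and -0.38 to 0.01 in BSKO. The lowest array was BSKO 1 for the meningeal and BSKO 4 for the dentate gyrus markers. It was BSKO 2 for the general neuronal markers, the astrocyte markers and Syt17. Other lists differed. With 8 arrays all 7 measured striatal markers and 5 of 6 hypothalamic markers were higher, and of 9 microglial markers 4 were higher and 5 lower. Of 9 cerebellar markers, 6 were lower and 3 higher with 8 arrays. Neurod1, on that list, was called with 8 arrays (-1.31, limma adjusted p = 0.0495) and with 7 (-1.38, limma adjusted p = 0.0125). The part of these cells in the differences of Syt17 and the other called genes was not tested.

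**Figure D2:**
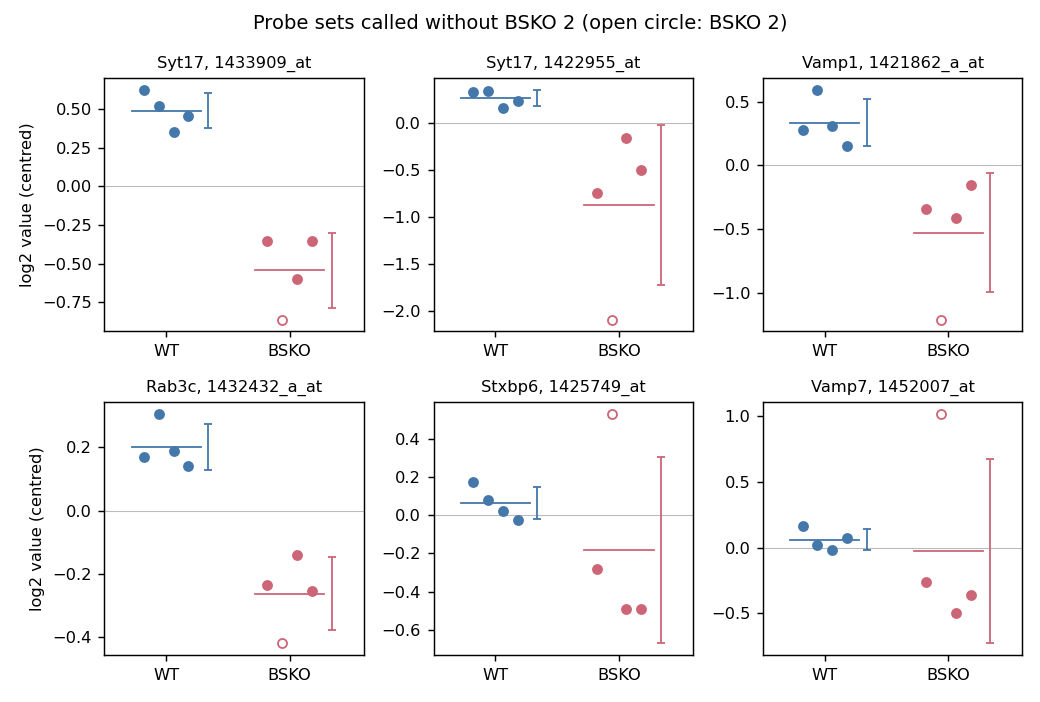
Log2 value (y axis, centred on the median over 8 arrays) of the 6 probe sets called without BSKO 2, on each WT (blue) and BSKO (red) array. Lines are group means and bars 1 SD over all 4 arrays of a group, and the open circle is BSKO 2. BSKO 2 lies below the other BSKO arrays for Syt17, Vamp1 and Rab3c and above every other array for Stxbp6 (0.53) and Vamp7 (1.02).

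Syt6, known from the sperm acrosome and from subsets of neurons, had the largest difference of all 54 genes and did not pass. Its 1 probe set was -1.02, -0.74, 0.09 and -0.10 on WT 1 to 4 and 0.62, -0.09, 1.73 and 1.02 on BSKO 1 to 4. WT 1 and WT 2 were lowest, BSKO 2 lay among WT 3 and WT 4, and the other BSKO arrays were above all WT arrays. The difference was 1.26 (SE 0.39, limma adjusted p = 0.281) with 8 arrays, which is 2.40-fold higher, and 1.57 (SE 0.33, limma adjusted p = 0.0581) with 7. It was 1.15 in replicates 1 and 2 alone and 1.38 in replicates 3 and 4.

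Fast calcium sensing rests on Syt1 and Syt2, and neither separated the genotypes. Syt1, the sensor of forebrain synapses, was 0.05, 0.03, 0.03 and 0.11 in WT and -0.32, -0.91, 0.64 and 0.05 in BSKO. The BSKO arrays lay on both sides of the WT arrays. The SD was 0.04 in WT and 0.65 in BSKO, and 0.49 without BSKO 2. The difference of -0.19 (SE 0.28, limma adjusted p = 0.746) turned to 0.07 (SE 0.19, limma adjusted p = 0.879) without BSKO 2. Syt2, the sensor of many hindbrain and fast inhibitory synapses, differed by 0.06 (SE 0.19, limma adjusted p = 0.892) with 8 arrays and 0.15 (SE 0.19, limma adjusted p = 0.672) with 7. Syt7, a slower sensor with high calcium affinity, differed by 0.66 (SE 0.34, limma adjusted p = 0.458), with BSKO 2 at 1.59, and by 0.30 (SE 0.15, limma adjusted p = 0.310) without it.

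Among complexins, Rab3 genes and Sv2a no gene mean passed. Cplx1 and Cplx2, the complexins of most central synapses, differed by -0.29 (SE 0.17) and 0.17 (SE 0.14) with 8 arrays and by -0.12 and 0.18 without BSKO 2 (limma adjusted p = 0.491 and 0.594, then 0.420 and 0.508). Cplx3, known from retinal ribbon synapses, lay at -0.20 to -0.04 in WT and 0.04 to 0.53 in BSKO, without overlap, and did not pass (0.29, limma adjusted p = 0.409, and 0.31, limma adjusted p = 0.204, without BSKO 2). Rab3a, the main Rab3 of synaptic vesicles, differed by 0.04 (SE 0.08, limma adjusted p = 0.821), and by 0.06 (SE 0.06, limma adjusted p = 0.639) without BSKO 2. Sv2a, the vesicle glycoprotein that levetiracetam binds, differed by -0.19 (SE 0.14, limma adjusted p = 0.547) and by -0.07 (SE 0.08, limma adjusted p = 0.634) without BSKO 2.

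**Figure D3:**
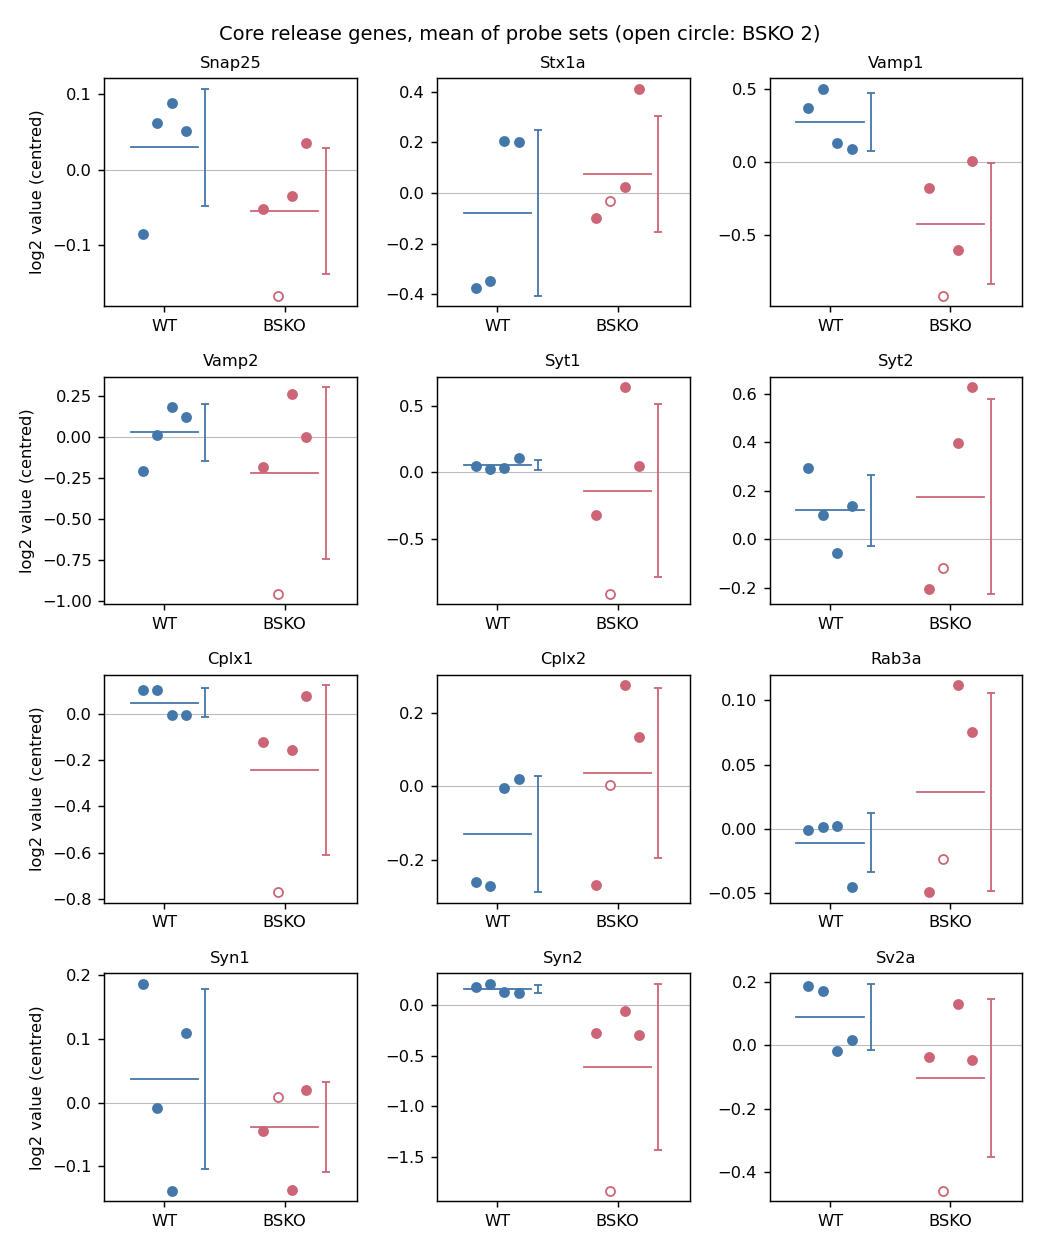
Log2 value (y axis, centred) of 12 core release genes, as the mean of their probe sets, on each WT (blue) and BSKO (red) array, each panel on its own scale. Lines are means, bars 1 SD over 4 arrays, and the open circle is BSKO 2. The genotypes overlapped for all but Vamp1 and Syn2, and BSKO 2 was the lowest array for these and for Snap25, Vamp2, Syt1, Cplx1 and Sv2a.

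Rab3c, a brain Rab3 of vesicle membranes, had 3 probe sets, of which 1 separated the genotypes with 8 arrays. Without BSKO 2 a further one, 1449494_at, did so too. On 1432432_a_at it was 0.17, 0.31, 0.19 and 0.14 on WT 1 to 4 and -0.23, -0.42, -0.14 and -0.25 on BSKO 1 to 4. The genotypes did not overlap, and BSKO 2 was the lowest array. The difference was -0.41 without BSKO 2 (SE 0.07, limma adjusted p = 0.0386) and -0.46 with 8 arrays (limma adjusted p = 0.166). On the other probe sets, 1432415_at and 1449494_at, it was -0.09 and -0.12 with 8 arrays and -0.23 and -0.22 with 7. The mean of the 3 did not pass (-0.22, limma adjusted p = 0.433, and -0.28, limma adjusted p = 0.108, without BSKO 2).

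Synapsins tether vesicles to one another and to actin. Syn2 was 0.18, 0.21, 0.13 and 0.12 on WT 1 to 4 and -0.27, -1.83, -0.05 and -0.29 on BSKO 1 to 4. All BSKO arrays lay below all WT arrays, and BSKO 2 lay far below the rest. The difference was -0.77 (SE 0.35, limma adjusted p = 0.420) with 8 arrays and -0.37 (SE 0.08, limma adjusted p = 0.0547) with 7, so that the size was more than halved by leaving out this array. Syn1 and Syn3 differed by -0.08 and 0.01 with 8 arrays (limma adjusted p = 0.722 and 0.983) and by -0.09 and 0.01 with 7 (limma adjusted p = 0.596 and 0.981).

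Probe sets of 1 gene disagreed most on BSKO 2. Over the 28 fusion genes with several probe sets, the median spread between a gene's highest and lowest probe set was 0.923 on that array, and 0.159 to 0.285 on the other 7. Over the 4956 such genes in all it was 0.815 on BSKO 2 and 0.111 to 0.252 elsewhere. For 13 of the 28 the spread on BSKO 2 was above 1. The widest was that of Snap23, at 3.50, where 1420897_at was -2.45, 1420896_at was 0.55 and 1420898_at was 1.05.

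**Figure D4:**
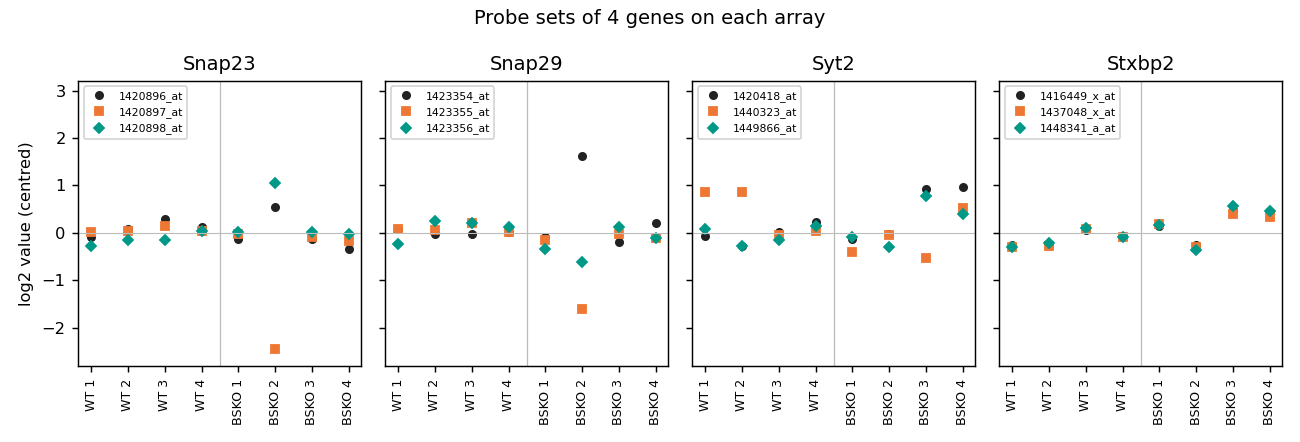
Log2 value (y axis, centred) of each of the 3 probe sets of Snap23, Snap29, Syt2 and Stxbp2 on the 4 WT and the 4 BSKO arrays (x axis), with 1 symbol per probe set. On BSKO 2 the probe sets of Snap23 and Snap29 spread over more than 3 log2 units, those of Stxbp2 stay together, and those of Syt2 part on WT 1, WT 2 and BSKO 3.

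In 3 genes there were probe sets with opposite differences that were each over 0.3 in size with 8 arrays. For Snap23 they were -0.75 and 0.40, for Snap29 -0.55 and 0.38, and for Syt2 -0.54 and 0.46. Without BSKO 2 the disagreement of Snap23 (-0.30, -0.16 and 0.14) and Snap29 (-0.03, -0.18 and -0.19) was no longer of that size, and that of Syt2 was (-0.57 against 0.62). On 1440323_at Syt2 was 0.86 on WT 1 and on WT 2, where the other probe sets were -0.28 to 0.09. Those of 11 of the 28 genes differed in sign with 8 arrays and of 10 without BSKO 2.

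WT arrays also differed among themselves. The 7 measured markers of striatal projection neurons had array medians of -1.94, -1.79, 0.01 and -0.08 on WT 1 to 4 and 0.06, 0.14, 1.12 and 1.03 on BSKO 1 to 4. For 6 of the 54 fusion genes the mean of WT 1 and WT 2 lay over 0.3 from that of WT 3 and WT 4, beside 9.21% of all genes. These were Syt6 (-0.88), Stx1a (-0.57), Rab3b (-0.34), Syt3 (0.34), Vamp1 (0.33) and Syt9 (0.31), given as WT 1 and WT 2 minus WT 3 and WT 4. For Syt17 the value was 0.15, against a genotype difference of -1.09. Syt6 followed the order of the striatal markers on the WT arrays and on BSKO 3 and BSKO 4, which were the highest for both. On BSKO 1 and BSKO 2 the order was reversed, with striatal medians of 0.06 and 0.14 and Syt6 at 0.62 and -0.09. The part of regional content in the Syt6 difference was not tested, and all 7 of these markers were higher in BSKO (median difference 1.61, none called).

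**Figure D5:**
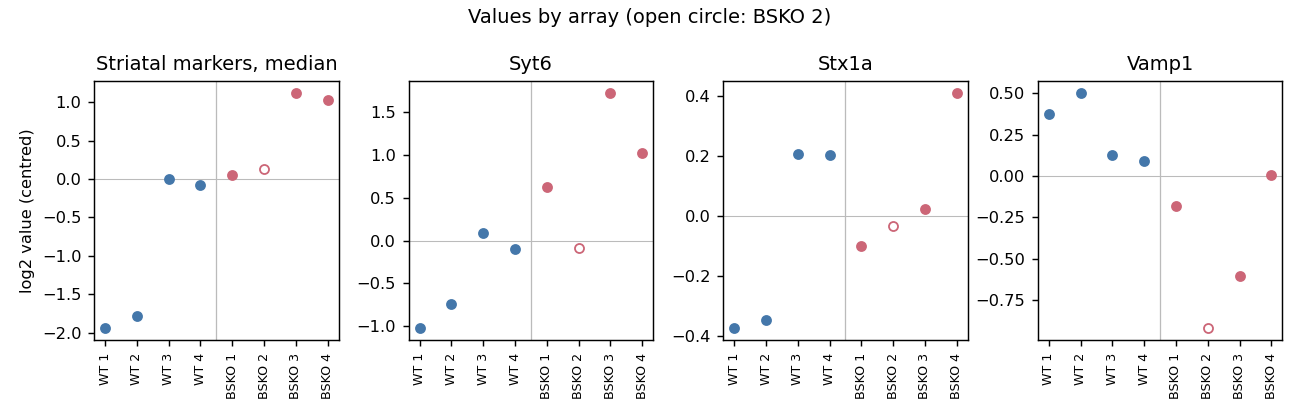
Log2 value (y axis, centred) on each array (x axis) of the median of 7 striatal markers and of Syt6, Stx1a and Vamp1, each panel on its own scale, with WT in blue, BSKO in red and BSKO 2 as an open circle. WT 1 and WT 2 lie below WT 3 and WT 4 in the first 3 panels and above them for Vamp1.

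Genes that act around fusion were examined from 4 lists. Of 17 measured genes of priming and the active zone, 9 were higher and 8 lower with 8 arrays, with a median difference of 0.02 (-0.02 without BSKO 2), and none was called. Among 16 genes of the vesicle membrane and of vesicle filling the median was -0.11 (0.04), and among 20 of vesicle endocytosis 0.00 (0.02), with no gene called in either. In the list of SNARE recycling and chaperones the median over 9 genes was -0.08 (-0.16), and 1 was called as lower without BSKO 2. That was Napb, or beta-SNAP, which works with the ATPase NSF to take spent SNARE complexes apart. It fell by 0.34 without BSKO 2 (SE 0.07, limma adjusted p = 0.0439) and differed by -0.74 with 8 arrays (SE 0.34, limma adjusted p = 0.426), where BSKO 2 was at -1.77.

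The sequences upstream of the genes were read for 4 members the results turn on, Vamp1, Rab3c and Stxbp6, which had called probe sets, and Syt6, with the largest difference. RefSeq windows of assembly GRCm38.p6 were found for 42 of the 54 genes, in 54 windows, and Syt17 and Vamp7 were not among them. Each line gives the 250 bases before the annotated transcription start, 5' to 3' on the gene's strand, and for Syt6 the first of its 3 windows. Capitals mark matches on either strand to the GC box (GGGCGG), the CCAAT box (CCAAT), the TATA box (TATAAA), the E-box (CACGTG), the cAMP response element (TGACGTCA) or the forkhead FoxO site (GTAAACA).
Vamp1, chr6:125215331-125215580, plus strand: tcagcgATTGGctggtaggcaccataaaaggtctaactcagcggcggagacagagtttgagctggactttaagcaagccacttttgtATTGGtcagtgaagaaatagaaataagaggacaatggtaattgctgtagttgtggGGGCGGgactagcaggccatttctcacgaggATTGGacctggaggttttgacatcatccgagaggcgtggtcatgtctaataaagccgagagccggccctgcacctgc
Rab3c, chr13:110280207-110280456, minus strand: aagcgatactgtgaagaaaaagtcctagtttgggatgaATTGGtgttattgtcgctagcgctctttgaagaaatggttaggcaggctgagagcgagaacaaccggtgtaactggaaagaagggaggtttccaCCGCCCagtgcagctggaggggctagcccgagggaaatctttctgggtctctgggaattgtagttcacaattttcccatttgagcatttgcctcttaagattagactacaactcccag
Stxbp6, chr12:45074484-45074733, minus strand: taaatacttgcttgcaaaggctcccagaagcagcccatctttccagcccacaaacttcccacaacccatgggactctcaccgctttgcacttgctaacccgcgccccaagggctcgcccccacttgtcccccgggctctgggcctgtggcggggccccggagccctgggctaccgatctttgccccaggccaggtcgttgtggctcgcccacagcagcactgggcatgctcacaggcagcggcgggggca
Syt6, chr3:103574995-103575244, plus strand: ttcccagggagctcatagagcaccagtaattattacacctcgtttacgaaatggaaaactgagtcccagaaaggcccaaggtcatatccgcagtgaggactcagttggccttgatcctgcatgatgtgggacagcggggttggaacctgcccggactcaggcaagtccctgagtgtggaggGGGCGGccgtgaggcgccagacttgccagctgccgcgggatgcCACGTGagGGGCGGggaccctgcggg
No motif was found in all 4 windows, while the GC box was in those of Vamp1, Rab3c and Syt6. The Vamp1 window held 3 CCAAT boxes and 1 GC box, the Rab3c window 1 of each, the Syt6 window 2 GC boxes and 1 E-box, and the Stxbp6 window none of the 6 motifs, with no overlap between matches. A match is a description of the letters and no evidence of binding. Over the fusion gene windows 57.4% held a GC box, beside 32.7% of all 32851 windows. For the CCAAT box the shares were 35.2% and 33.8%, for the TATA box 5.56% and 12.4%, for the E-box 11.1% and 6.02%, for the cAMP response element 3.70% and 1.55%, and for the FoxO site 3.70% and 3.17%. FoxO proteins are known substrates of SIRT1, and the site was found upstream of Stx2 and Stx19, neither of which passed the test (0.20 and -0.47 with 8 arrays).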

How the data were processed

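Per the labels, RNA of 8 brains, 4 of each genotype, was run on 8 Affymetrix Mouse430A_2 arrays of 1 colour. The deposited values are log2 values that the authors made with RMA, per the submitters' processing notes. Its version is not given in the sources used here. In the table, 22689 of 22690 probe sets were centred, with their median within 1e-05 of 0. No label records this step. As a consequence, where the genotypes do not overlap on a probe set, its nearest WT and BSKO values mirror each other around 0. The 64 control probe sets were left out, and no filter was applied. Symbols came from the platform annotation, and all 54 members matched RefSeq by gene number.

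The comparison used limma 3.58.1 (R 4.3.3), with lmFit, eBayes and no covariate. Its two-sided p-values were adjusted by Benjamini-Hochberg over all 22626 probe sets or all 12393 genes, at a threshold of 0.05. For the 5 genes with a called probe set the means were also put to an exact permutation test. The SD measures the spread between the arrays of a group. The SE is limma's moderated SE, in which eBayes draws the variance of each gene or probe set toward a value estimated from all of them. It can thus be larger or smaller than the spread of that gene's own arrays would give. The number of arrays limits the precision of both. The script was tested on simulated data. Figures were drawn with matplotlib 3.10.9.

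Named were genes called with 8 or 7 arrays, core release genes, the gene with the largest difference in each family, and genes whose probe sets disagreed by over 0.3 in both directions. Other members were named as examples after their values were seen. The members, the lists and this rule were chosen with earlier results of these data known. Alternatives were quantile normalization, centring of arrays, trend and robust eBayes, array weights, a replicate block, replicates 1 and 2 against 3 and 4 as a term, omission of probe sets with suffixes of possible cross-hybridisation, leaving out each array, and a threshold of 0.10.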

Additional observations from a re-analysis of the deposited data

Results flagged for a closer look

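In 44 groups of 4 arrays (22 named genes in each genotype), 3 had 1 array far from the others, where chance gives about 1 in 20. Syn2 was -1.83 on BSKO 2, where the other BSKO arrays lay between -0.29 and -0.05. Syt17 was -1.48 on BSKO 2, where the others lay between -0.55 and -0.38. Rab3a was -0.0451 on WT 4, where the others lay between -0.00107 and 0.00195, a small gap beside the SD of 0.0772 in BSKO.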

How the results depend on the processing

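With 8 arrays, where 0 probe sets and 0 genes were called, quantile normalization gave 9 probe sets (1 higher) and 6 genes (1 higher), and array weights gave 27 (12 higher) and 14 (6 higher). Over all features these settings called 678 and 2617 of 22626 probe sets and 423 and 1234 of 12393 genes, against 7 and 9. With array weights, BSKO 2 had a weight of 0.0456 and BSKO 4 one of 3.69 over probe sets. Trend and robust settings, a term for replicates 1 and 2 against the others, and a threshold of 0.10 each gave 1 probe set and 0 genes. Over all features these 3 called 108, 84 and 66 probe sets and 48, 78 and 58 genes. Leaving out each array gave 0 to 6 probe sets and 0 to 3 genes, the highest in each case without BSKO 2. Over all features it gave 0 to 369 probe sets and 2 to 266 genes, again the highest without BSKO 2.

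Without BSKO 2, where 6 probe sets and 3 genes were called, array weights gave 26 (11 higher) and 14 (6 higher), the replicate group term 12 (5 higher) and 7 (3 higher), and a threshold of 0.10 gave 17 (6 higher) and 10 (4 higher). Over all features these settings called 3005, 744 and 1131 probe sets and 1478, 565 and 734 genes. Leaving out a further array gave 0 to 12 probe sets and 1 to 8 genes. Over all features it gave 19 to 1069 probe sets and 13 to 814 genes, the fewest without WT 2 and the most without BSKO 1. Among members there were 0 probe sets without WT 2 or WT 4, 1 without WT 1, WT 3 or BSKO 4, 3 without BSKO 3 and 12 without BSKO 1. The causes were not tested.

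With the replicate number as a block, 0 member probe sets and 0 member genes were called with 8 arrays and with 7. Over all features 0 probe sets were called in both, and 0 genes with 8 arrays and 4 with 7. Without BSKO 2, WT 2 has no partner in its block. Syt17 had a limma adjusted p of 0.0842 in this fit without BSKO 2. Same-numbered arrays correlated at 0.0858, 0.0562, 0.140 and 0.129 in their deviations from the group means, and not every array correlated best with its own number. WT and BSKO arrays on the same side of the replicate group term all correlated positively (0.0307 to 0.165). Those on opposite sides all correlated negatively (-0.147 to -0.0374). What the arrays on each side share was not tested.

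Of the 22 named genes' differences with 8 arrays under other settings, 333 kept their direction and side of the threshold, 15 kept their direction and passed it, and 4 turned sign: Syt1 to 0.0668 without BSKO 2, and Syt2 to -0.00273 without WT 3, -0.0170 without BSKO 3 and -0.0940 without BSKO 4. Leaving out each array gave -0.451 to 0.0668 for Syt1 and -0.0940 to 0.183 for Syt2. With 4 arrays a group and a median SE of 0.134, changes of the size seen for most members were not detectable. No filter on dim probe sets was run, since centred values carry no signal over background.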
